A study of Mus musculus with 2 samples.

Results

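Heat shock protein genes encode the chaperones that hold and refold damaged proteins. The 10 genes described here are the inducible HSP70 genes Hspa1a and Hspa1b, the constitutive HSP70 gene Hspa8, the HSP70 helpers Dnajb1 and Hsph1, the cytosolic HSP90 genes Hsp90aa1 and Hsp90ab1, the small heat shock protein gene Hspb1, and the mitochondrial chaperonin genes Hspd1 and Hspe1. They were taken by symbol from the 32285 genes of the count matrix, and all 10 were found. The data are 2 single-cell RNA sequencing (scRNA-seq) libraries, 1 from a control tumor group and 1 from tumors left after incomplete irreversible electroporation (iIRE), in which short electric pulses destroy part of a tumor. The comparison asks how the cells of the residual tumor differ from those of tumors that received no pulses. KPC cells, a pancreatic cancer line from genetically engineered mice with Trp53 R172H and Pdx1-Cre, had been implanted in the pancreas of C57BL/6 mice. The cancer cells of both groups therefore carry the alleles of that line and derive from 1 cell line, whereas the host cells do not carry them. In the iIRE group, 99 pulses were given between 2 needles, and the controls are described both as untreated tumors and, in the methods, as tumors with needle insertion without pulses. The mice were male and were obtained at 5 to 7 weeks of age. Tumors were collected on day 3 after the procedure, and how many mice went into each library was not given in the sources used here.

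In resting cells the transcription factor HSF1 is held inactive by chaperones. Heat, oxidants, hypoxia or damaged proteins draw these chaperones away, and HSF1 then binds heat shock elements, which are inverted repeats of GAA, and induces HSP70, its helpers and HSP25. Hspa8, Hsp90ab1, Hspd1 and Hspe1 are also transcribed without stress and serve the folding of newly made proteins, so growing tumor cells usually contain much of them. Enzymatic dissociation of a tissue is itself known to induce Hspa1a, Hspa1b and the immediate-early genes of the Fos and Jun families, and the levels below are those of cells after dissociation.

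The control library held 18538 barcodes with 247105192 unique molecular identifiers (UMIs), and the iIRE library 19433 barcodes with 222153118 UMIs. After quality filters and removal of likely doublets, 15274 and 15991 cells were kept, with a median of 7424 and 6065 UMIs. The libraries shared 458 barcode sequences, which were kept as separate cells. Cells were assigned to classes by marker genes, none of which is a heat shock protein gene, and 7.93% and 7.66% of the cells met no gate. Tumor cells (11705 in the control and 12690 in the iIRE library) were defined by Cdkn2a without Ptprc and Y-linked transcripts, and the other classes by the usual lineage markers. Cells gated as macrophages, neutrophils or other host classes also contained tumor transcripts, with Cdkn2a at 203 CPM (UMIs of a gene per 1000000 UMIs of the class) in the gated macrophages of both libraries against 1290 and 1372 CPM in tumor cells. For immune and endothelial classes, the values below are therefore those of cells without a UMI of Cdkn2a, Krt8 and Krt18, a restriction chosen after the data had been seen. It left 884 control and 901 iIRE macrophages, which had C1qa, a complement gene of macrophages, at 3888 and 3399 CPM. The library of a barcode was read from its ending and the library numbers in the labels, and a swap would reverse every direction given here. The study's own library descriptions bear on this in both ways. The orders of its total, T cell, dendritic, acinar and endothelial cell numbers go with the reading used. The orders of its mean UMIs per cell and of its macrophage and neutrophil numbers go against it. The study had more of both cell types after iIRE. Here, by gates that differ from its clusters, 1501 control and 1412 iIRE cells were macrophages, and 194 and 155 were neutrophils. Since each group was 1 library, levels were compared without a test. The 95% Poisson intervals printed with levels cover counting error only, take each UMI as independent and say nothing about the spread between mice.

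The inducible HSP70 genes Hspa1a and Hspa1b encode nearly the same chaperone and are intronless neighbors on chromosome 17 (mm10, GENCODE vM21; Hspa1a at chr17:34969190-34972156 and Hspa1b at chr17:34956436-34959238, both on the minus strand). In 49.6% of the 90-base windows in the first 500 bases of either transcript, the sequence was found in the other as well, so that reads from these stretches cannot be given to 1 of the genes and the split of UMIs between them is uncertain. Beyond the coding region, the 250 bases before the start sites were the same at 247 positions (98.8%), with the differences C44T, T47C and T249G, where the Hspa1a base comes first and positions are counted from 1 at the 5′ end of the stretches shown here. The stretches are printed because both genes, which differed in where they were expressed, carry the same heat shock element, GAAGATTC, set in capitals and ending 97 bases before the start site. The sequences are from RefSeq (GRCm38.p6, minus strand, chr17:34972157-34972406 for Hspa1a and chr17:34959239-34959488 for Hspa1b).
Hspa1a: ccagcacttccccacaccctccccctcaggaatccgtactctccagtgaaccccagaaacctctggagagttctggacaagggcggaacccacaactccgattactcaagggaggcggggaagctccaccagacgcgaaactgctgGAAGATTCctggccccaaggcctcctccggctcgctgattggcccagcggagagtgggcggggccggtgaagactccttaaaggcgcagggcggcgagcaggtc
Hspa1b: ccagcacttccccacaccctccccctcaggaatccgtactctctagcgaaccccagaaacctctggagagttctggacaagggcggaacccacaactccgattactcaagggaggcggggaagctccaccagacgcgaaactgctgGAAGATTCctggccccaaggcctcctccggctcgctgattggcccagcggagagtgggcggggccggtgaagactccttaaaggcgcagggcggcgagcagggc

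A heat shock element of 2 units (GAANNTTC or TTCNNGAA, which read alike on both strands) was present in 15.1% of all 32851 RefSeq promoter windows, each with 250 bases before and 50 bases after a start site. Such an element was found for 6 of the 7 genes that had a window (Hspa1a, Hspa1b, Hsph1, Hspb1, Hspd1 and Hspe1). Elements of 3 units (GAANNTTCNNGAA or TTCNNGAANNTTC), which contain those of 2 units, were present in 0.603% of all windows and in those of Hsph1, Hspd1 and Hspe1. The core of the hypoxia response element (ACGTG or GCGTG on either strand) was present in 43.8% of all windows, in 7 of the 10 windows of these genes and in 0 of those of Hspa1a, Hspa1b and Hspb1. A match describes the sequence and not the binding of a factor.

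Macrophages and host fibroblasts of the control library had the highest levels of Hspa1a. In macrophages Hspa1a was at 255 CPM (interval 242 to 268) in the control library and at 142 CPM (132 to 152) in the iIRE library, 1.74-fold lower after 10 CPM had been added to both levels. In host fibroblasts, the collagen-producing cells with Y-linked transcripts and no Cdkn2a, it was at 239 CPM (199 to 284) and 88.6 CPM (69.1 to 112), from 127 and 70 UMIs. The control library was thus the higher one in both classes, with intervals that did not overlap. Tumor cells had lower levels of Hspa1a, 56.2 CPM (55.1 to 57.4) and 47.1 CPM (46.0 to 48.2). The log2 ratio of iIRE over control was -0.80 in macrophages, -1.33 in host fibroblasts and -0.21 in tumor cells.

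Ordered by level in the control library, macrophages and host fibroblasts overlapped in their intervals, and neutrophils (148 CPM, 100 to 210), dendritic cells (143 CPM, 113 to 178) and osteoclast-like cells (110 CPM, 93.8 to 129) followed, each overlapping with its neighbor. Tumor cells came next, ahead of endothelial cells (34.1 CPM from 10 UMIs) and T/NK cells (19.3 CPM from 5 UMIs), of which only T/NK cells had an interval that stayed below that of tumor cells. Acinar cells, which had Cdkn2a at 705 and 619 CPM and were not restricted to cells without tumor markers, are left out of these orders (65.2 CPM of Hspa1a from 43 UMIs in the control library and 4 UMIs in the iIRE library). In the iIRE library, neutrophils were at 226 CPM (163 to 304), macrophages at 142 CPM, endothelial cells at 112 CPM from 17 UMIs, osteoclast-like cells at 96.4 CPM (82.1 to 112), host fibroblasts at 88.6 CPM, dendritic cells at 54.2 CPM (29.6 to 90.9) and T/NK cells at 47.3 CPM from 4 UMIs. There, neutrophils did not overlap with macrophages, nor macrophages with osteoclast-like cells and host fibroblasts, whereas the interval of endothelial cells (65.0 to 179) spanned all these neighbors but the upper neutrophil range. In dendritic cells the iIRE level was the lower one and the intervals did not overlap. The neutrophil level of the iIRE library rested on 1 cell, which held 59 of the 87 UMIs of Hspa1a and Hspa1b in 125 neutrophils, and in the control library 1 cell held 33 of 73.

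**Figure D1:**
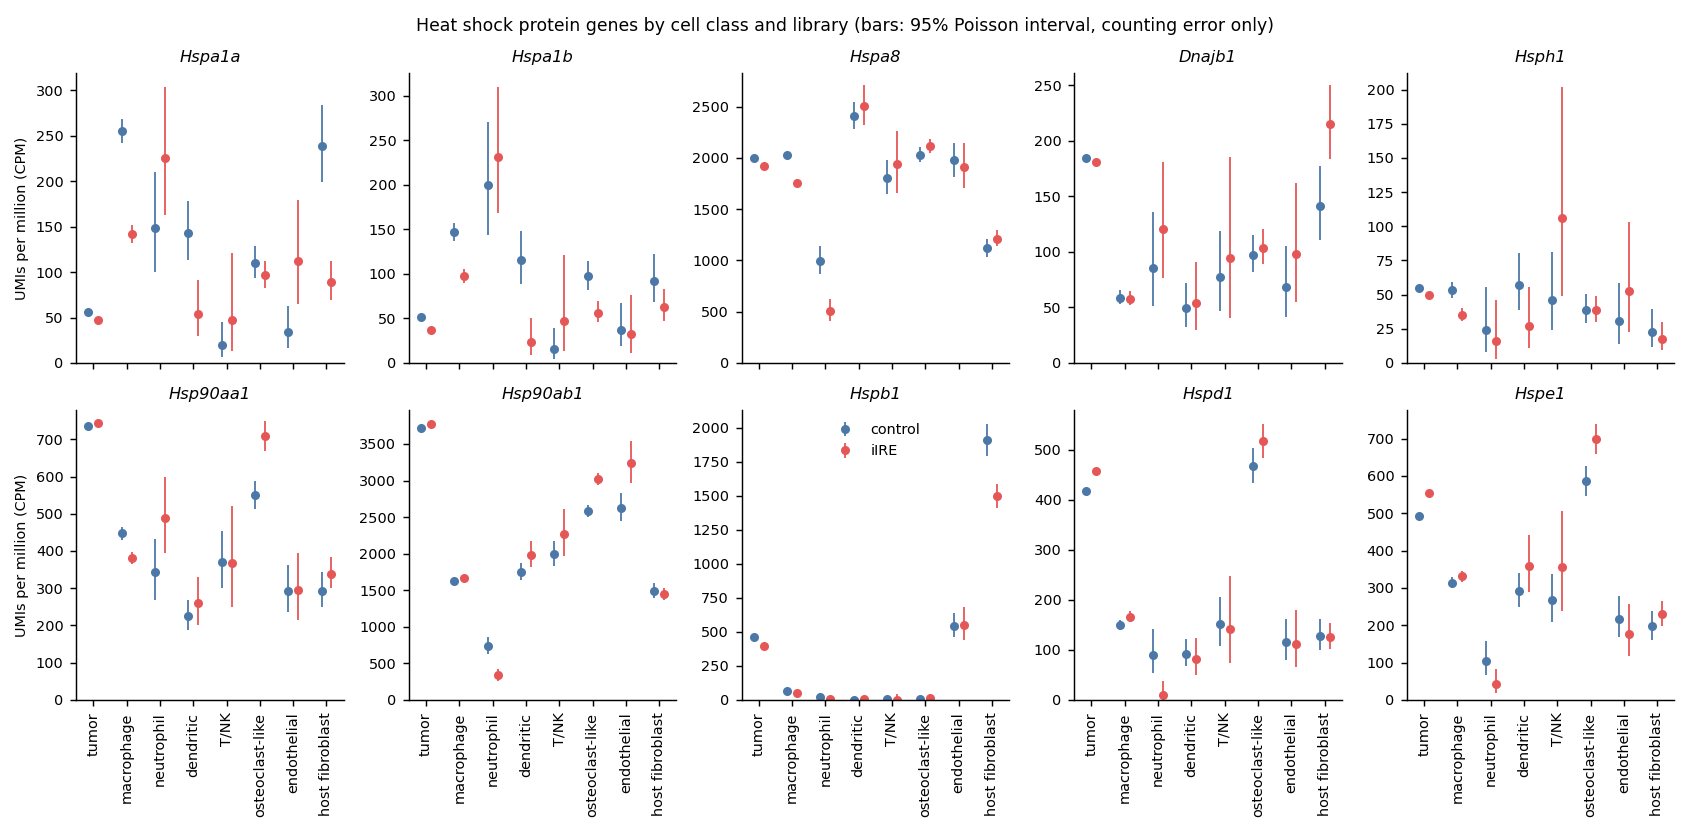
Level of each of the 10 genes (y axis, CPM, starting at 0) in 8 cell classes (x axis), for the control library in blue and the iIRE library in red, with 95% Poisson intervals that cover counting error only. Macrophages to endothelial cells are those without tumor markers. Hspa1a in macrophages is at 255 CPM in the control and 142 CPM in the iIRE library, and Hspb1 is highest in host fibroblasts at 1908 and 1497 CPM.

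Hspa1b was likewise at 147 CPM (137 to 157) and 97.3 CPM (89.4 to 106) in the macrophages of the control and iIRE libraries. In tumor cells it was at 52.1 CPM (50.9 to 53.2) and 37.3 CPM (36.3 to 38.3), 1.31-fold lower in the iIRE library. Osteoclast-like cells, which express Acp5, Ctsk and other genes of bone-resorbing cells, had 97.8 CPM (82.4 to 115) and 56.5 CPM (45.7 to 69.1), and dendritic cells 116 CPM (88.8 to 148) and 23.2 CPM (8.52 to 50.5). In each of these classes the level of Hspa1b was lower in the iIRE library with no overlap of the intervals. The intervals of the other classes overlapped between the libraries. Neutrophils had the highest levels, 200 CPM (144 to 271) and 231 CPM (168 to 310), although only 4.07% and 3.20% of them had a UMI. Host fibroblasts had 92.0 CPM (68.1 to 122) and 63.3 CPM (47.0 to 83.5). Endothelial cells had 37.5 and 32.8 CPM from 11 and 5 UMIs, and T/NK cells 15.5 and 47.3 CPM from 4 UMIs each. The dendritic levels rested on 63 control and 6 iIRE UMIs. With every cell thinned to 2000 UMIs, 10.1% of control and 5.71% of iIRE dendritic cells had a UMI of Hspa1b, with overlapping intervals. Such shares also overlapped in macrophages (8.53% and 7.72%) and osteoclast-like cells (15.2% and 6.90%), but not in tumor cells (8.29% and 7.19%). The sum of both genes does not depend on how counted reads were divided between them, but it may miss reads that fit both. With both genes summed, macrophages had 401 CPM (386 to 418) and 239 CPM (227 to 252), and tumor cells 108 CPM (107 to 110) and 84.3 CPM (82.9 to 85.8). The sum was 3.48-fold higher in macrophages than in tumor cells in the control library and 2.64-fold higher in the iIRE library. Within each of 3 ranges of UMIs per tumor cell, the sum was also lower in the iIRE library, with 117 and 102 CPM in cells of 1000 to 3000 UMIs, 114 and 93.6 CPM in cells of 3000 to 10000 UMIs, and 107 and 80.9 CPM in deeper cells.

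Few macrophages held most UMIs of the inducible pair. In the control library, 58 of 884 macrophages (6.56%) had 10 or more UMIs of the pair and held 72.4% of them, whereas in the iIRE library 35 of 901 (3.88%) did and held 60.7%. Macrophages without a UMI of the pair made up most of the class, as 284 and 234 cells had at least 1. In tumor cells, 317 cells (2.71%) and 223 cells (1.76%) had 10 or more UMIs and held 42.6% and 32.2%. In host fibroblasts, 7 of 45 control cells and 2 of 65 iIRE cells had as many, so that the difference between the libraries in this class rested on few cells. After every cell had been thinned to 2000 UMIs, 16.9% of control macrophages (exact Clopper-Pearson interval 14.4 to 19.7%) and 12.9% of iIRE macrophages (10.8 to 15.4%) had a UMI of Hspa1a, leaving out 63 and 59 shallower cells. Without thinning the shares were 29.2% and 22.4%. In tumor cells the thinned shares were 9.19% and 8.49%, and the unthinned ones 29.4% and 24.2%. T/NK cells, with a median of 3202.5 and 2662 UMIs against 6405 and 5724 in macrophages, had 1 cell with a UMI of Hspa1a in each library after thinning, of 59 and 21 cells (1.69% and 4.76%). The intervals of these shares of T/NK cells reached 9.09% and 23.8%, and only that of the control library stayed below the macrophage share.

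**Figure D2:**
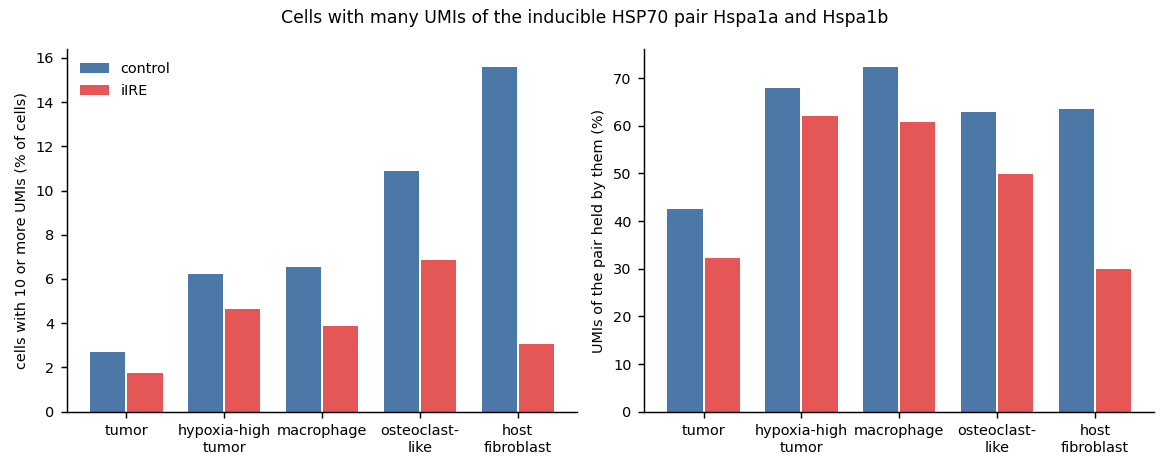
Share of cells with 10 or more UMIs of Hspa1a and Hspa1b together (left, % of the cells of the class) and share of the pair's UMIs that these cells held (right, %), for tumor cells, hypoxia-high tumor cells, macrophages and osteoclast-like cells without tumor markers, and host fibroblasts. Each bar is 1 library (control in blue, iIRE in red). The control bar is the higher one in all 5 classes, 6.56% against 3.88% of cells in macrophages, and the host fibroblast bars stand for 7 and 2 cells.

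Hspa8 encodes HSC70, the HSP70 that cells make without stress. It was at 1997 CPM (1990 to 2004) and 1922 CPM (1915 to 1929) in tumor cells and at 2025 CPM (1990 to 2061) and 1759 CPM (1725 to 1794) in macrophages of the control and iIRE libraries. The level in macrophages was thus within 1.2-fold of that in tumor cells in both libraries, whereas Hspa1a and Hspa1b were past it. Dendritic cells had the most, 2409 CPM (2281 to 2543) and 2511 CPM (2321 to 2711), and neutrophils the least, 996 CPM (866 to 1141) and 509 CPM (413 to 621), which in the control library overlapped with host fibroblasts (1117 CPM, 1029 to 1211).

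Dnajb1 encodes the HSP40 that hands substrates to HSP70 and stimulates its ATPase. In contrast to the inducible pair it was higher in tumor cells, with 185 CPM (183 to 187) and 181 CPM (179 to 184), than in macrophages, with 58.9 CPM (53.0 to 65.4) and 57.9 CPM (51.8 to 64.4), a ratio of 2.83 and 2.82. The levels of the libraries overlapped in macrophages and differed by 1.02-fold in tumor cells. Host fibroblasts had 141 CPM (111 to 177) and 215 CPM (184 to 250), with the iIRE library higher by 1.49-fold, the opposite direction to Hspa1a in the same cells. With cells thinned to 2000 UMIs, the shares of host fibroblasts with a UMI of Dnajb1 overlapped, at 20.5% (9.80 to 35.3%) and 21.5% (12.3 to 33.5%). In the iIRE library the top 5% of the 65 thinned cells held 48.1% of these UMIs, so that the higher level rested on few cells.

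Hsph1 encodes HSP110, which exchanges the nucleotide of HSP70. It was at 54.5 CPM (53.4 to 55.6) in the control and at 48.9 to 51.2 CPM (interval) in the iIRE tumor cells, and at 53.3 CPM (47.7 to 59.5) and 35.2 CPM (30.5 to 40.4) in macrophages. It was 1.40-fold lower in the macrophages of the iIRE library, while 6.21% (4.66 to 8.09%) and 6.29% (4.75 to 8.15%) of the thinned macrophages had a UMI of it. The shares of cells thus overlapped where the levels did not, and without thinning they were 16.2% and 15.4%.

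The HSP90 genes Hsp90aa1, which stress induces, and Hsp90ab1, which is expressed constitutively, encode the chaperone of kinases and steroid receptors. In tumor cells Hsp90aa1 was at 736 CPM (731 to 740) and 743 CPM (738 to 747), and Hsp90ab1 at 3722 CPM (3712 to 3731) and 3775 CPM (3765 to 3785). Each differed by 1.01-fold between the libraries. In macrophages Hsp90aa1 was at 447 CPM (430 to 464) and 380 CPM (364 to 396) and Hsp90ab1 at 1630 CPM (1598 to 1662) and 1668 CPM (1634 to 1701). Tumor cells thus had more of both, with Hsp90ab1 2.28-fold and 2.26-fold and Hsp90aa1 1.63-fold and 1.93-fold above macrophages. Osteoclast-like cells had the highest Hsp90aa1 among host fibroblasts and the host classes without tumor markers, 550 CPM (512 to 589) and 709 CPM (669 to 750), and here the iIRE library was higher by 1.28-fold. Neutrophils had 739 CPM (627 to 865) of Hsp90ab1 in the control and 336 CPM (259 to 429) in the iIRE library, with 155 and 64 UMIs.

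Hspb1 encodes the small heat shock protein HSP25, which binds unfolding proteins without ATP and protects the actin cytoskeleton. It lies on chromosome 5 (mm10, chr5:135887919-135889563, plus strand). The 60 bases shown, from RefSeq (GRCm38.p6, plus strand, chr5:135887789-135887848), hold its 2 heat shock elements of 2 units in capitals, which end 110 and 90 bases before the start site.
Hspb1: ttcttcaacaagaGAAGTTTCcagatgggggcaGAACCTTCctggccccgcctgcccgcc

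Hspb1 was high in tumor, endothelial and host fibroblast cells and almost without UMIs in lymphoid and dendritic cells. Host fibroblasts had 1908 CPM (1793 to 2029) and 1497 CPM (1413 to 1585), endothelial cells 546 CPM (465 to 637) and 551 CPM (440 to 682), and tumor cells 461 CPM (458 to 464) and 396 CPM (393 to 399) in the control and iIRE libraries. In dendritic cells 0 UMIs were counted in the control library, which allows up to 6.76 CPM, and 1 UMI in the iIRE library, in T/NK cells 1 and 0 UMIs, and in osteoclast-like cells 8 and 19 UMIs (5.51 and 11.3 CPM). Macrophages had 66.7 CPM (60.3 to 73.5) and 52.3 CPM (46.5 to 58.6), so that tumor cells were 6.14-fold and 6.52-fold above them. In gated macrophages that were not restricted to cells without tumor markers, Hspb1 was at 114 and 93.1 CPM, and tumor cells were 3.79-fold and 3.94-fold above. After thinning, 42.7% (41.8 to 43.6%) and 41.3% (40.5 to 42.2%) of tumor cells had a UMI of Hspb1, against 4.38% (3.09 to 6.02%) and 2.26% (1.36 to 3.50%) of macrophages and 0 of 69 and 35 dendritic cells, which allows up to 5.21% and 10.0%. The shares of host fibroblasts, 38.6% (24.4 to 54.5%) and 47.7% (35.1 to 60.5%), overlapped with those of tumor cells, unlike the levels. The top 5% of the thinned fibroblasts held 31.2% and 49.5% of their Hspb1 UMIs, against 37.6% and 36.4% in tumor cells. Median depth was 8977 and 6552 UMIs in tumor cells, 6405 and 5724 in macrophages and 6812 and 7078 in dendritic cells.

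Hspd1 and Hspe1 encode HSP60 and HSP10, the barrel and the lid of the mitochondrial chaperonin. The genes lie head to head on chromosome 1 (mm10; Hspd1 at chr1:55077835-55088243 on the minus strand and Hspe1 at chr1:55088132-55091307 on the plus strand), and their models overlap by 112 bases, where reads can be assigned only by strand. Between them they share the most extended heat shock element among the 7 genes with a promoter window, shown in capitals in 28 bases from RefSeq (GRCm38.p6, plus strand, chr1:55088054-55088081). It is present in the windows of both genes, read from opposite strands.
Hspe1: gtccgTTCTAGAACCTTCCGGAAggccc

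In tumor cells, Hspd1 was at 418 CPM (415 to 421) in the control and 458 CPM (454 to 461) in the iIRE library, and Hspe1 at 492 CPM (488 to 495) and 553 CPM (549 to 557). They were the members with the highest log2 ratio of iIRE over control in tumor cells, 0.13 and 0.17, and both stayed under 1.2-fold. In macrophages, Hspd1 was at 149 CPM (140 to 159) and 166 CPM (156 to 177), and Hspe1 at 313 CPM (299 to 328) and 331 CPM (316 to 346), with overlapping intervals. Osteoclast-like cells had the highest levels of both among host fibroblasts and the host classes without tumor markers, 467 CPM (433 to 504) and 517 CPM (483 to 552) for Hspd1 and 586 CPM (547 to 626) and 699 CPM (660 to 740) for Hspe1. Neutrophils of the iIRE library were at 10.5 CPM from 2 UMIs for Hspd1, against 90.6 CPM from 19 UMIs in the control library.

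Counted over the 10 genes, 0 were past 1.2-fold higher in the tumor cells of the iIRE library, where 0.775% of the 15480 genes with at least 50 UMIs were. Hspa1b was the 1 gene past 1.2-fold lower, against 0.607% of all genes. The median log2 ratio was -0.04 for the 10 genes and 0.01 for all genes, and 4 genes were above and 6 below 0. Among gated macrophages, 0 of 10 were past 1.2-fold higher (5.63% of all genes) and 4 lower (3.97%), namely Hspa1a, Hspa1b, Hsph1 and Hspb1. Without removal of doublets Hsph1 and Hspb1 were no longer past it there, with log2 ratios of -0.15 and -0.02, nor was Hspb1 where every cell had equal weight, at -0.23. The same 4 genes were past 1.2-fold lower in the macrophages without tumor markers, where 4.35% of all genes were lower and 9.04% higher, and the median was -0.22 against 0.04 for all genes. Stress induces all 4, but Dnajb1 and Hsp90aa1, which it also induces, stayed within 1.2-fold, as did Hspa8, Hsp90ab1, Hspd1 and Hspe1.

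**Figure D3:**
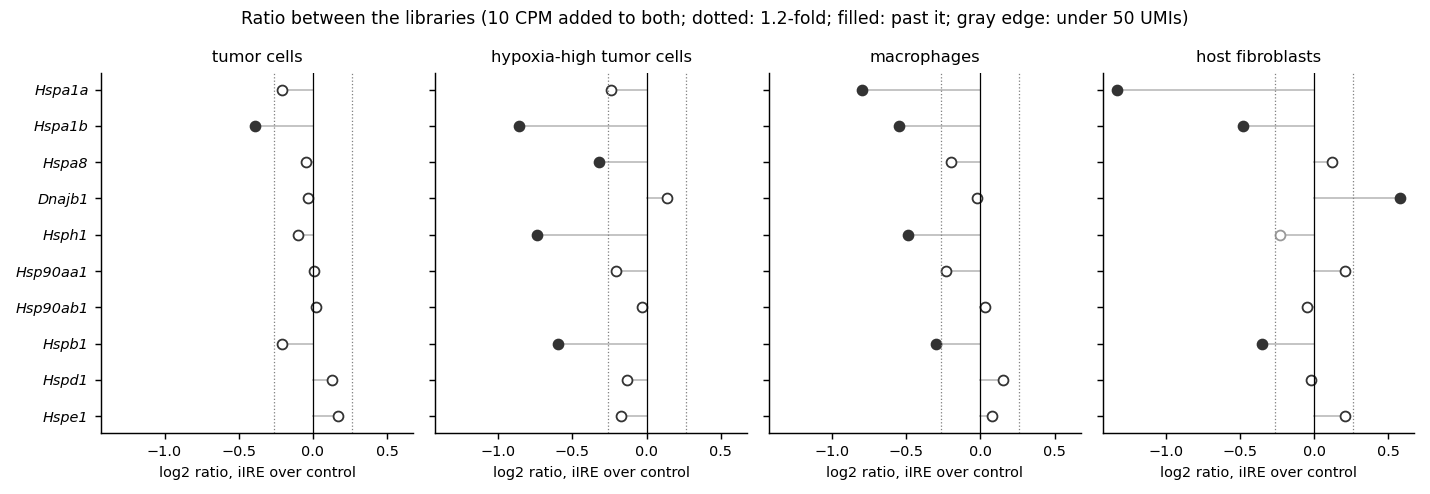
Log2 ratio of iIRE over control (x axis, after 10 CPM had been added to both levels) for each of the 10 genes (y axis) in tumor cells, hypoxia-high tumor cells, macrophages without tumor markers and host fibroblasts. Filled points are past 1.2-fold (dotted lines), open points are not, and a gray edge marks a gene under 50 UMIs. Hspa1b lies left of 0 in all 4 panels, from -0.39 in tumor cells to -0.86 in hypoxia-high tumor cells, and Dnajb1 is the only filled point right of 0, at 0.58 in host fibroblasts.

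The smaller host classes had wider intervals and larger shares of all genes past the fold. In host fibroblasts, 1 of the 9 genes with 50 UMIs was higher (22.6% of all genes) and 3 were lower (26.2%). In dendritic cells 1 of 7 was higher (18.9%) and 2 were lower (26.8%), and in osteoclast-like cells 1 of 9 was higher (20.5%) and 1 lower (14.3%). Neutrophils without tumor markers had 2 of 5 higher (26.7%) and 2 lower (29.1%), T/NK cells 1 of 5 higher (23.9%) and 0 lower (27.2%), and endothelial cells 1 of 6 higher (21.4%) and 1 lower (28.5%). Among acinar cells, the enzyme-secreting cells of the pancreas, 5 of 8 genes were lower (42.5%) and 0 higher (20.5%). By TMM the bulk of genes lay at a log2 ratio of -0.03 in neutrophils and 0.13 in T/NK cells without tumor markers, and at -0.31 in all gated neutrophils. 

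The counts of the small classes depended on whether cells with tumor markers were included. All gated endothelial cells, with Cdkn2a at 804 CPM in the control and 1149 CPM in the iIRE library, had 6 of 8 genes higher in the iIRE library (25.2% of all genes) and 1 lower (26.6%). Hspd1 was at 200 and 491 CPM and Hsp90aa1 at 401 and 823 CPM in them, against 116 and 112 CPM and 293 and 295 CPM in endothelial cells without tumor markers. Hspb1 was at 609 and 274 CPM in all gated endothelial cells and at 546 and 551 CPM in those without tumor markers. Gated neutrophils, with Cdkn2a at 678 and 134 CPM, had 2 of 9 genes higher (28.8%) and 6 lower (53.0%). Dnajb1 changed direction with the restriction, from 184 and 137 CPM to 85.8 and 121 CPM in neutrophils and from 186 and 125 CPM to 77.3 and 94.6 CPM in T/NK cells. Gated dendritic cells had 1 of 9 higher (24.8%) and 4 lower (26.0%), gated T/NK cells 1 of 7 higher (24.8%) and 1 lower (27.0%), and gated osteoclast-like cells 1 of 10 higher (13.4%) and 4 lower (20.2%). The part of tumor transcripts in these counts was not tested.

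Among tumor cells, levels of the heat shock protein genes were compared between cell states that overlap, as 40.9% of control and 44.1% of iIRE cells of the epithelial type were also dividing. In tumor cells with the highest expression of hypoxia-induced genes such as Car9, Ndrg1 and Vegfa (1282 control and 1158 iIRE cells), Hspa1b but not Hspa1a was high. In the control library Hspa1b was at 144 CPM in hypoxia-high cells and at 40.2 CPM in the other tumor cells, a 3.08-fold difference, and in the iIRE library at 74.9 and 33.3 CPM, or 1.96-fold. Hspa1a was at 57.3 and 56.1 CPM in the control library and at 46.9 and 47.1 CPM in the iIRE library, and thus within 1.02-fold. Dnajb1 was 1.28-fold and 1.46-fold higher in the hypoxia-high cells of the control and iIRE libraries. Hsph1 was 1.43-fold and Hspb1 1.47-fold higher in those of the control library, and in the iIRE library Hsph1 was at 42.7 against 50.8 CPM and Hspb1 at 423 against 393 CPM, both within 1.2-fold. Hspd1 was lower in hypoxia-high cells, with 258 against 439 CPM and 235 against 481 CPM, by 1.67-fold and 2.00-fold. Of the hypoxia-high cells 15.8% and 18.7% were also dividing, whereas 5446 of 11705 and 6423 of 12690 tumor cells were. Hspd1 was higher in dividing cells, as given below, and the part of this overlap in the difference was not tested. Against the other tumor cells, 8.65% and 8.92% of all genes were past 1.2-fold higher and 22.3% and 21.9% lower in the control and iIRE libraries.

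Between the libraries, 4 of the 10 genes were past 1.2-fold lower in the hypoxia-high cells of the iIRE library, against 2.75% of all genes, and 0 higher, against 4.14%. Hspa1b was at 144 CPM (139 to 150) and 74.9 CPM (70.4 to 79.6), Hsph1 at 77.9 CPM (73.9 to 82.1) and 42.7 CPM (39.3 to 46.3), and Hspb1 at 647 CPM (636 to 659) and 423 CPM (412 to 434). Each of these was lower in the iIRE library without overlap, and Hspa8 was also past the fold with 1811 CPM (1791 to 1830) and 1449 CPM (1429 to 1469). The median log2 ratio was -0.23 for the 10 genes against 0.02 for all genes. The hypoxia-high cells are the upper 10% of a score and not a cell type, and 1232 tumor cells lay within 10% of the boundary of 29.6 UMIs per 10000. In the control library, 80 of these cells (6.24%) had 10 or more UMIs of the inducible pair and held 67.9% of its UMIs, and in the iIRE library 54 cells (4.66%) held 62.0%. Median depth was 14209.5 UMIs in the control and 11708.5 in the iIRE library, and its part in the number of such cells was not tested.

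**Figure D4:**
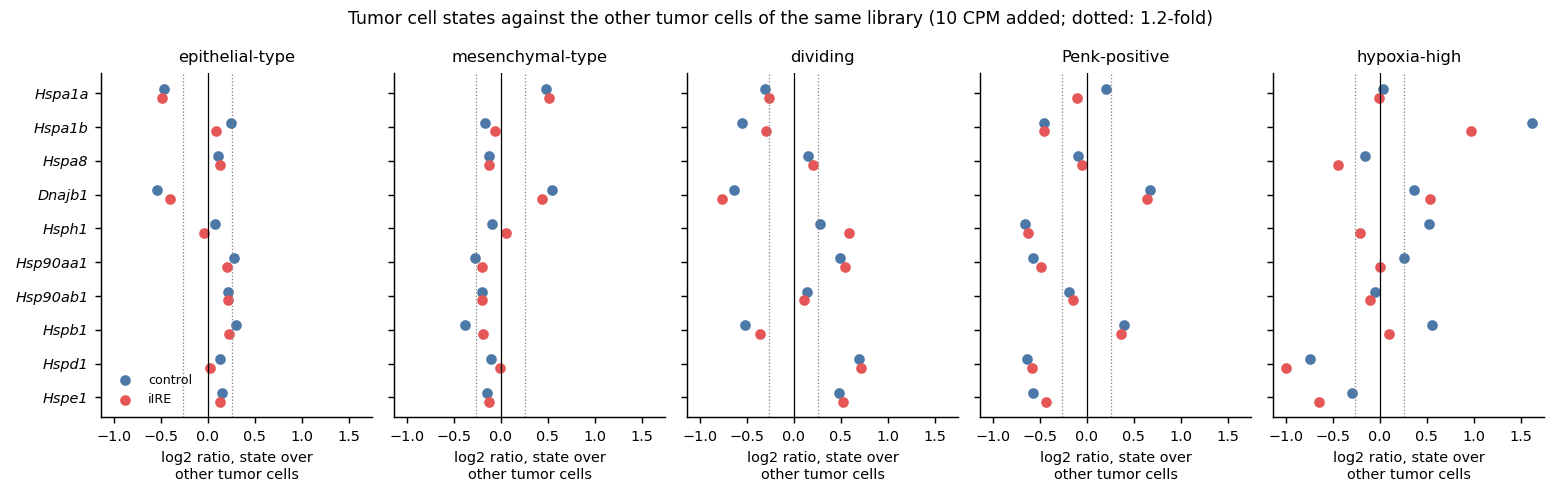
Log2 ratio of the level in a tumor cell state over that in the other tumor cells of the same library (x axis, after 10 CPM had been added to both) for the 10 genes (y axis), with the control library in blue and the iIRE library in red and dotted lines at 1.2-fold. Hspa1b is at 1.62 and 0.97 in hypoxia-high cells while Hspa1a lies at 0.03 and -0.01, and Hspd1 and Hsp90aa1 lie to the right in dividing cells and to the left in Penk-positive cells.

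Dividing tumor cells, which express Mki67, Top2a and other genes of mitosis, had more of the chaperonin and of Hsp90aa1. In the control library Hspd1 was at 531 CPM in dividing and 325 CPM in the other tumor cells, and in the iIRE library at 577 and 347 CPM, which is 1.61-fold and 1.64-fold. Hspe1 was 1.39-fold and 1.43-fold and Hsp90aa1 1.40-fold and 1.45-fold higher. Dnajb1 was the reverse, with 141 against 222 CPM and 131 against 228 CPM, 1.54-fold and 1.69-fold lower in dividing cells, and Hspb1 was 1.43-fold and 1.28-fold lower. Hsph1 was also above the other tumor cells, with 61.3 against 48.9 CPM and 62.6 against 38.4 CPM. Of all genes, 14.9% and 15.8% were past 1.2-fold higher in dividing cells of the control and iIRE libraries, and 8.20% and 7.60% lower. Between the libraries, 0 of the 10 genes were past the fold in dividing cells, in which 1.26% of all genes were higher and 0.835% lower.

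Penk-positive tumor cells (881 control and 830 iIRE cells with Penk, the proenkephalin gene, and Id3) had the opposite profile for most of these genes. Dnajb1 was at 286 against 176 CPM in the control library, and it was 1.59-fold and 1.56-fold above the other tumor cells in the control and iIRE libraries, and Hspb1 was 1.32-fold and 1.28-fold above them. Hspd1 was at 275 against 431 CPM and 312 against 472 CPM, Hsp90aa1 was 1.49-fold and 1.41-fold lower, and Hsph1 was 1.58-fold and 1.53-fold lower. Of these cells 25.4% and 15.1% were also dividing, and 6.94% and 5.63% of all genes were past 1.2-fold higher and 9.61% and 13.9% lower against the other tumor cells. Between the libraries, Hspa1a (65.8 and 43.6 CPM) and Hspa1b (36.5 and 25.5 CPM) were past 1.2-fold lower in the Penk-positive cells of the iIRE library (3.32% of all genes) and Hspe1 (336 and 418 CPM) was higher (1.29%).

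Tumor cells of the epithelial type, with keratins and Epcam, had less Hspa1a and Dnajb1 than the other tumor cells, most of which were of the mesenchymal type. Hspa1a was at 40.5 against 60.0 CPM in the control library and 33.3 against 50.8 CPM in the iIRE library, 1.39-fold and 1.40-fold lower, and Dnajb1 was 1.45-fold and 1.32-fold lower. Hspa1b was at 61.1 against 49.9 CPM and 39.5 against 36.7 CPM, within 1.2-fold in both. Against the other tumor cells, 13.5% and 12.8% of all genes were past 1.2-fold lower and 7.30% and 6.73% higher in epithelial-type cells. Mesenchymal-type cells had 60.8 CPM of Hspa1a in the control and 51.7 CPM in the iIRE library, 1.39-fold and 1.43-fold above the other tumor cells, where 12.8% and 11.2% of all genes were higher and 6.56% and 5.93% lower. Between the libraries, Hspa1b (61.1 and 39.5 CPM) and Hspb1 (546 and 449 CPM) were past 1.2-fold lower in epithelial-type cells of the iIRE library (0.960% of all genes, with 1.95% higher), and Hspa1b (50.3 and 36.7 CPM) in mesenchymal-type cells (0.688%, with 0.855% higher).

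Set against tumor cells of the same library, macrophages without tumor markers were past 1.2-fold higher in Hspa1a and Hspa1b and lower in Dnajb1, Hsp90aa1, Hsp90ab1, Hspb1, Hspd1 and Hspe1 in both libraries. In the iIRE library Hspa1a was 2.66-fold and Hspa1b 2.27-fold higher, and in the control library both were further apart. Of all genes, 20.8% and 21.5% were past 1.2-fold higher and 40.6% and 38.9% lower, and scaling by the trimmed mean of M values (TMM) put the bulk of genes at a log2 ratio of -0.13 in the control and -0.08 in the iIRE library.

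Of 17 other genes of the heat shock response, 16 had at least 50 UMIs in tumor cells. Of these, 0 were past 1.2-fold in either direction, where 0.775% of all genes were higher and 0.607% lower, and the median log2 ratio was 0.01. The members with the highest level were Serpinh1, the collagen chaperone (936 and 878 CPM), Fkbp4, an HSP90 cochaperone (206 and 208 CPM), Hspa4, an HSP110 (198 and 209 CPM), and Dnaja1, an HSP40 (178 and 183 CPM). Hsf1 itself was at 58.8 and 57.8 CPM. In macrophages without tumor markers, 14 of the 17 had 50 UMIs, and 1 was past the fold higher (9.04% of all genes) and 2 lower (4.35%). Cacybp was the higher one, with 87.2 and 114 CPM, and Dnajb4 (17.4 and 12.4 CPM) and Zfand2a (38.3 and 27.7 CPM) were lower, with a median of 0.11 over the list. In osteoclast-like cells without tumor markers, 5 of 13 were higher (20.5% of all genes) and 1 lower (14.3%).

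Partners of HSP70 and HSP90 (10 genes), the cytosolic chaperonin TRiC (8 genes), mitochondrial chaperones (7 genes) and chaperones of the endoplasmic reticulum (11 genes) had 0 members past 1.2-fold in tumor cells, against the same 0.775% and 0.607% of all genes, with medians between -0.03 and 0.06. The endoplasmic reticulum chaperone Hspa5, which encodes BiP, was just under it with 555 and 667 CPM, a log2 ratio of 0.26. In macrophages, Hspbp1 (32.9 and 43.6 CPM) and Fkbp5 (21.6 and 38.9 CPM) among the partners and Trap1 (30.1 and 40.1 CPM) and Dnaja3 (14.0 and 19.9 CPM) among the mitochondrial chaperones were past 1.2-fold higher in the iIRE library, as were 9.04% of all genes. The TRiC and endoplasmic reticulum lists had 0 members past it there.

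Immediate-early genes, which dissociation is known to raise with the inducible HSP70 genes, were mostly lower in the macrophages of the iIRE library. Of 14 genes, 10 were past 1.2-fold lower in the iIRE library (4.35% of all genes) and 0 higher (9.04%), with a median log2 ratio of -0.43, and their summed level was 14941 CPM in the control and 11233 CPM in the iIRE library. Fos was at 2595 and 1949 CPM, Junb at 2219 and 1672 CPM, Dusp1 at 1907 and 1304 CPM and Zfp36 at 1816 and 1403 CPM. In host fibroblasts 11 of 14 were lower (26.2%) and 1 higher (22.6%), with a sum of 25872 and 18111 CPM. In tumor cells 0 of 14 were past the fold, with a sum of 14630 and 13645 CPM. Dendritic cells without tumor markers, in which Hspa1a was 2.38-fold lower in the iIRE library, had 4 of 14 lower (26.8%) and 2 higher (18.9%), with a sum of 9546 and 8568 CPM. Hspa1a was thus past 1.2-fold lower in macrophages and host fibroblasts, where most immediate-early genes were lower, and in dendritic cells, where most were not. The dendritic levels of Hspa1a rested on 78 and 14 UMIs, and the shares of dendritic cells with a UMI of it overlapped. The part of dissociation in the levels of Hspa1a and Hspa1b was not tested. In neutrophils without tumor markers 3 were higher (26.7%) and 3 lower (29.1%), with a sum of 38004 and 38793 CPM.

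The inducible genes varied together from cell to cell in macrophages, and less so in tumor cells. In macrophages, the Pearson correlation over cells between Hspa1a and Hspa1b (natural log of 1 plus UMIs per 10000) was 0.69 in 884 control cells and 0.58 in 901 iIRE cells. That between Hspa1b and Hsph1 was 0.48 and 0.26, between Hspa1b and Hsp90aa1 0.41 and 0.30, and between Hspa1b and Hspb1 0.38 and 0.34. In tumor cells the correlation between Hspa1a and Hspa1b was lower, 0.28 and 0.24, and the pair with the highest value among the 10 genes was Hspa8 with Hsp90ab1 at 0.30 and 0.31. Dnajb1 correlated with Fos, at 0.26 and 0.25, and Jun, at 0.27 and 0.26, more than with any of the other 9 genes in tumor cells. The cells of a library share its depth and free RNA, and reads common to Hspa1a and Hspa1b could, if counted, enter the value of that pair.

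**Figure D5:**
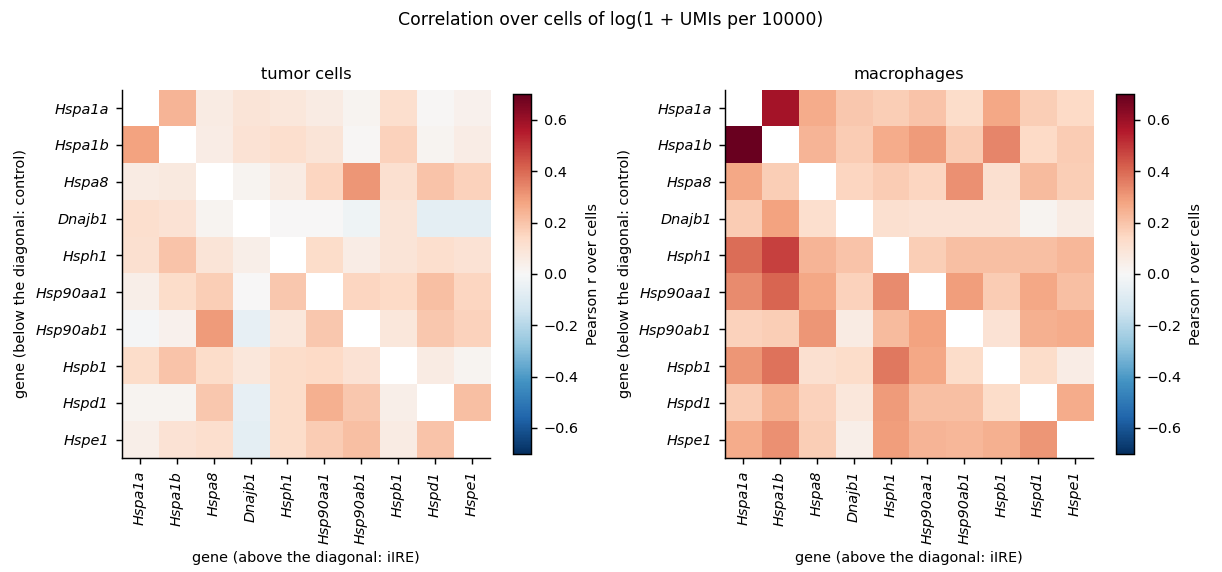
Pearson correlation over cells between the 10 genes (both axes), with control cells below the diagonal and iIRE cells above it, in tumor cells (left) and macrophages without tumor markers (right). The color scale runs from -0.7 to 0.7 and the diagonal is blank. The darkest square is Hspa1a with Hspa1b in control macrophages, at 0.69, and the row of Dnajb1 is pale in tumor cells.

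The genes most like the summed inducible pair were ranked by a fixed rule. Over tumor cells, the genes with the highest correlation in the lower of both libraries included Hspb1 (0.19 and 0.16), Jun (0.17 and 0.16), Fos (0.12 and 0.14) and Hspa5 (0.12 and 0.12). Dnajb1 was at rank 6 and Hsph1 at rank 9, and Hsp90ab1 was at rank 3849, with a correlation of at most 0.01. Over 18 levels of cell classes in both libraries, the 5 genes with the highest correlation were Rp2 (0.82), Gpr155 (0.81), Atp7a (0.81), Cic (0.80) and St3gal1 (0.78). These 18 points share 2 libraries and are given as a description.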

How the data were processed

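The 2 libraries were droplet-based 5′ scRNA-seq of dissociated tumors. The authors aligned the reads to mm10 with STAR inside Cell Ranger. The file headers name version 7.0.1 of Cell Ranger, whereas the study's methods name an earlier version. The deposited data are 1 matrix of raw UMI counts, which holds no correction for free RNA. Barcodes ending in 1 were taken as control and in 2 as iIRE, from the library numbers in the labels.

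Cells were kept with at least 200 genes, 1000 UMIs, log10 genes of at least 0.7 times log10 UMIs, and at most 5% mitochondrial and 5% hemoglobin UMIs. Doublets were scored against summed pairs of cells (30 components, 40 neighbors), and 14.2% and 15.1% were removed. Cells were gated by markers, and their UMIs were summed per class and library. A gene was compared from 50 UMIs on, as log2 of CPM plus 10, iIRE over control, and was past the fold at 1.2. No test was run, as each group was 1 library, and cells are not replicates. Shares of cells were taken after thinning to 2000 UMIs. Poisson and Clopper-Pearson intervals (95%) cover counting error only, and are too narrow where UMIs bunch in few cells. Genes named beyond the 10 were up to 4 members of highest CPM in a list and the 5 most correlated genes, of which 1 is not reported here; Hsf1 and the list members past the fold in macrophages were named after their values were seen. The 10 genes and the lists were chosen with earlier results of these data known. Alternatives covered the doublet removal, added CPM, fold, scaling (trimmed mean of M values, TMM), UMI and mitochondrial limits, number of markers, equal weight of cells, and thinning. Ratios were tested on simulated data. Python 3.11.15, NumPy 2.4.6, SciPy 1.17.1, scikit-learn 1.9.0 and matplotlib 3.10.9 were used.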

Additional observations from a re-analysis of the deposited data

How the results depend on the processing

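No paired analysis was possible because each group was 1 library. For the same reason no replicate could be left out, and the spread between mice is unknown. With no doublets removed, 2 rather than 4 of the 10 genes were past 1.2-fold lower in gated macrophages. At 1.5-fold, 0 genes were lower in tumor cells and 1 in macrophages. In macrophages without tumor markers, a restriction chosen after the data had been seen, the median log2 ratio of the 10 genes was -0.22, against -0.09 in all gated macrophages. In tumor cells and macrophages, for which these alternatives were run, no ratio past 1.2-fold changed sign. In smaller classes such ratios had another sign with the restriction, from -0.39 to 0.45 for Dnajb1 in neutrophils, from -0.54 to 0.26 for Dnajb1 and from 0.51 to -0.02 for Hsp90aa1 in T/NK cells, and from -1.12 to 0.01 for Hspb1 in endothelial cells. The intervals of all these restricted ratios included 0, and those of Dnajb1 rested on fewer than 50 UMIs. Over the alternatives, the log2 ratio of iIRE over control ran from -0.80 to -0.55 for Hspa1a in macrophages, from -0.47 to -0.38 for Hspa1b in tumor cells, and from -0.31 to -0.02 for Hspb1 in macrophages. The ratios of Hsp90aa1 and Hsp90ab1 in tumor cells and of Dnajb1 and Hsp90aa1 in macrophages, all within 1.2-fold, took both signs. TMM shifted the ratios by 0.04 in tumor cells. The cause of these shifts was not tested. In neutrophils and T/NK cells without tumor markers, of which few were counted, 5 of the 10 genes had 50 UMIs.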
